A study of Homo sapiens with 6 samples.

Results

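EHF, ELF3 and 8 further transcription factors of the ETS family were followed in HCT116, an established human colorectal carcinoma line. The 10 genes were taken as a list of epithelial and general ETS factors, selected on family membership with the mutant minus parental differences of these arrays in view, foremost that of EHF. Each of them has 1 probe set annotated to a single gene symbol, out of 18417 genes with such a probe set, so the list is covered completely by 10 probe sets. Because the contrast itself guided the choice, the values of the 10 genes are given as a description and carry no test.

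Whole-transcript expression was read on 6 arrays from 100 ng of total RNA each. The 3 parental arrays hold unmodified HCT116 cells, and the other 3 hold a line derived from HCT116 that carries a gene mutation and is described as having altered DNA methylation. Both lines grew in McCoy's 5A medium with serum and antibiotics. The labels name neither the mutated gene nor the number of clones behind the mutant arrays, and nothing in them says that arrays of one line came from separate cultures. The p-values weigh each difference against the spread between arrays, which may therefore be technical. The mutation and any other change that arose in the derived line cannot be told apart.

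ETS factors share a winged helix-turn-helix DNA-binding domain that recognises sites built around the core GGAA, so many members can occupy the same sites and are told apart by tissue distribution, partners and flanking bases. EHF, ELF3 and SPDEF are grouped here as epithelium-specific factors, by where they are expressed. In the gut and other lining tissues ELF3 and EHF support epithelial differentiation, and SPDEF drives maturation of goblet and Paneth cells. ELF1, ELF2 and ELF4 are broadly expressed or blood-linked activators, ETS1 and ETS2 are effectors of RAS and MAPK signalling, and ERG and FLI1 are best known from endothelial and blood cells and from cancer gene fusions.

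The start-site sequences of the factors that differed most, and of 2 that differed little, are shown because the mutant line is labelled for its DNA methylation, which in human cells falls mainly on CG dinucleotides. RefSeq windows (GRCh38.p14) were found for 8 of the 10 factors, the exceptions being ETS1 and FLI1. Each line holds the 250 bases before an annotated start, 5′ to 3′ on the strand of the gene, with every CG in capitals. The EHF windows lie at chr11:34624007-34624256 and chr11:34632316-34632565 (both + strand), the ELF3 window at chr1:202010337-202010586 (+), the SPDEF window at chr6:34556330-34556579 (-) and the ETS2 window at chr21:38804933-38805182 (+).
EHF, first start: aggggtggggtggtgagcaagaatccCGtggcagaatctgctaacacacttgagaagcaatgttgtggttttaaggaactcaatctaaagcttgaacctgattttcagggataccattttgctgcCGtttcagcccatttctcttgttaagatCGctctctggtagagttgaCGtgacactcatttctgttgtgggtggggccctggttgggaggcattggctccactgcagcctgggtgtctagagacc
EHF, second start: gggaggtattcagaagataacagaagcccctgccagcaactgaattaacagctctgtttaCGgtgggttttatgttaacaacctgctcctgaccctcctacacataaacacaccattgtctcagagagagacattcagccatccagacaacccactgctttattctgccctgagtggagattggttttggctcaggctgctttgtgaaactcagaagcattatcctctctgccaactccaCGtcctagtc
ELF3: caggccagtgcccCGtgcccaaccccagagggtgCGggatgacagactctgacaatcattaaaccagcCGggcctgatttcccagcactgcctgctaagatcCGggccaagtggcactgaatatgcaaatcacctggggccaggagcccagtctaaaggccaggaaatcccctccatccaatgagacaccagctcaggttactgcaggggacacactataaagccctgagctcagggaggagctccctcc
SPDEF: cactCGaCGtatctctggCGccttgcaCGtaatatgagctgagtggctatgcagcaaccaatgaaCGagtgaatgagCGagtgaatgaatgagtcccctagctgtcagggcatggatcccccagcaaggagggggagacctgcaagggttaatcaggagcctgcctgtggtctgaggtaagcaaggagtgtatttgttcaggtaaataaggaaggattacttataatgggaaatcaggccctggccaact
ETS2, first start: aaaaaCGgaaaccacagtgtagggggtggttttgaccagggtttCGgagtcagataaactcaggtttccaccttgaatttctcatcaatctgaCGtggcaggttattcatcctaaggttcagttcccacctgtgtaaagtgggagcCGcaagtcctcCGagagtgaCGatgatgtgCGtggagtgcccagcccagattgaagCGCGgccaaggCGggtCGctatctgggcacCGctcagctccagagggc

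The EHF windows hold 4 and 2 CG dinucleotides and the ELF3 window holds 4. Across all 35116 RefSeq windows of this length the median was 11, and 34.3% of windows had 4 or fewer while 22.9% had 2 or fewer. SPDEF, whose level hardly differed between the lines, has a window of the same kind with 6 CGs. The first ETS2 window has 12. Among the 18 windows of the 8 factors the count ran from 2 to 44, the highest at one of 4 ERG starts. Counts of 6 or fewer were found at EHF, ELF3 and SPDEF. Several starts of ELF1 (5 and 3), ELF4 (4 and 5) and ERG (2, 3 and 3) had them too. ELF1, ELF4 and ERG, which differed by 0.05, 0.13 and -0.19, also have a start with 22, 34 and 44 CGs, respectively. Which starts these lines use was not tested. DNA methylation was not analysed here.

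The windows were also searched on both strands for the ETS core GGAA, for CCGGAA, which contains it, and for CCGGAAGT, which contains both. GGAA occurs in 15 of the 18 windows, against 92.7% of all windows. CCGGAA and CCGGAAGT occur in 0 of the 18, against 14.5% and 3.42% of all windows. The second EHF window lacks all 3 motifs, as do the first windows of ELF1 and ELF2. These are letter matches in short windows, some of which overlap, and not binding sites.

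Array medians lay between 6.88 and 6.93 on the log2 scale, and no array was left out. As a guide to what these arrays read for genes not expected in a colon line, 13 measured genes typical of lens, retina, islet, heart, liver or pituitary had mean values from 3.32 to 8.62 with a median of 5.22. The highest of them, named after their values were seen, were the cardiac troponin gene TNNI3 at 8.72 in parental and 8.53 in mutant arrays and the lens crystallin gene CRYGC at 6.69 and 6.64. Of these 13 guide genes 0 differed between the lines by limma after adjustment, and 1 had an unadjusted p under 0.05. Probe sets differ in affinity, so the guide gives only a range, and levels of different genes are not ranked. The epithelial label was borne out by EPCAM, named for this check, at 12.15 ± 0.03 in parental and 12.33 ± 0.06 in mutant arrays (mean log2 ± SD, n = 3 each), and by the keratins KRT8, KRT18 and KRT19, each above 11 on the log2 scale in both lines. The intestinal epithelium markers VIL1 (5.76 in both lines), KRT20 (5.87 and 5.80) and GPA33 (5.82 and 5.72), also named for this check, read within the range of the guide genes. Named after their values were seen, CDX1 (7.12 and 7.10), CDX2 (8.52 and 8.48), LGALS4 (6.92 and 6.84) and CEACAM5 (5.05 and 5.11) did so too.

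EHF, an epithelial activator and repressor, differed most among the 10 factors. Its probe set (7939314) read 11.06, 10.99 and 11.01 in the parental arrays and 5.48, 5.79 and 4.95 in the mutant arrays. All 3 mutant arrays were low, and the nearest arrays of the 2 lines were 5.21 log2 units apart. The means were 11.02 ± 0.03 and 5.41 ± 0.43 (log2 ± SD, n = 3 each), a difference of -5.61, or 49-fold. The mutant arrays varied more among themselves than the parental arrays did, with replicate 3 lowest. Their mean lies near the median of the guide genes, where RMA compresses differences, so the fold is a fitted size and not a ratio of transcript numbers. In RNA of whole cultures, fewer expressing cells and less RNA per cell cannot be told apart.

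ELF3, a close relative of EHF in gut epithelium, was also lower in the mutant. Its probe set (7908793) read 9.30, 9.12 and 9.25 in parental arrays and 8.45, 8.27 and 8.43 in mutant arrays. The groups did not overlap, with a gap of 0.67. The means were 9.22 ± 0.09 and 8.38 ± 0.10 (log2 ± SD, n = 3 each), which is a difference of -0.84, or 1.79-fold. The parental level is above the range of the guide genes, and the mutant level is inside its upper end, below TNNI3 and above CRYGC.

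SPDEF, the goblet cell factor also grouped here as epithelium-specific, showed no such separation. Its probe set (8125843) read 6.82, 6.79 and 6.74 in parental and 6.65, 6.66 and 6.76 in mutant arrays. The third mutant array lay inside the parental range, so the groups overlapped, and the difference of means was -0.09. Its level was within the range of the guide genes in both lines.

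The ELF1 group, activators with roles in blood cells and in many other tissues, differed by at most 0.13 between the lines. ELF1 (7971197) read 9.80, 9.88 and 9.95 in parental and 9.91, 9.94 and 9.94 in mutant arrays, a difference of 0.05. ELF2 (8102817) read 8.48, 8.41 and 8.42 against 8.30, 8.39 and 8.31, a difference of -0.10. ELF4 (8175039) read 9.33, 9.47 and 9.38 against 9.50, 9.43 and 9.63, a difference of 0.13. The groups overlapped for ELF1 and ELF4. For ELF2 all mutant arrays were lower, but by a gap of only 0.02, which is less than the SD of either line (0.04 and 0.05). ELF1 and ELF4 read above the range of the guide genes in both lines, and ELF2 read inside its upper end.

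The paired relatives ETS1 and ETS2, both targets of MAPK phosphorylation, parted. ETS1 (7952601) read 7.46, 7.69 and 7.66 in parental arrays and 5.74, 5.54 and 5.93 in mutant arrays. All mutant arrays were low, with a gap of 1.54, and the means of 7.60 ± 0.12 and 5.73 ± 0.19 (log2 ± SD, n = 3 each) differed by -1.87, or 3.66-fold. Both levels of ETS1 fall in the range of the guide genes, the parental one between CRYGC and TNNI3 and the mutant one near the median. ETS2 (8068593) read 9.77, 9.75 and 9.84 in parental and 9.66, 9.72 and 9.64 in mutant arrays, a difference of -0.11 with a gap of 0.03. ETS2 read above the range of the guide genes in both lines.

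ERG and FLI1, the endothelial and blood factors, were dim throughout. ERG (8070297) read 5.72, 5.54 and 5.62 in parental and 5.35, 5.52 and 5.42 in mutant arrays, a difference of -0.19 with a gap of 0.02. FLI1 (7945132) read 4.70, 4.75 and 4.89 in parental and 4.68, 4.76 and 4.65 in mutant arrays, a difference of -0.08 with overlapping groups. Both lie in the range of the guide genes.

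**Figure D1:**
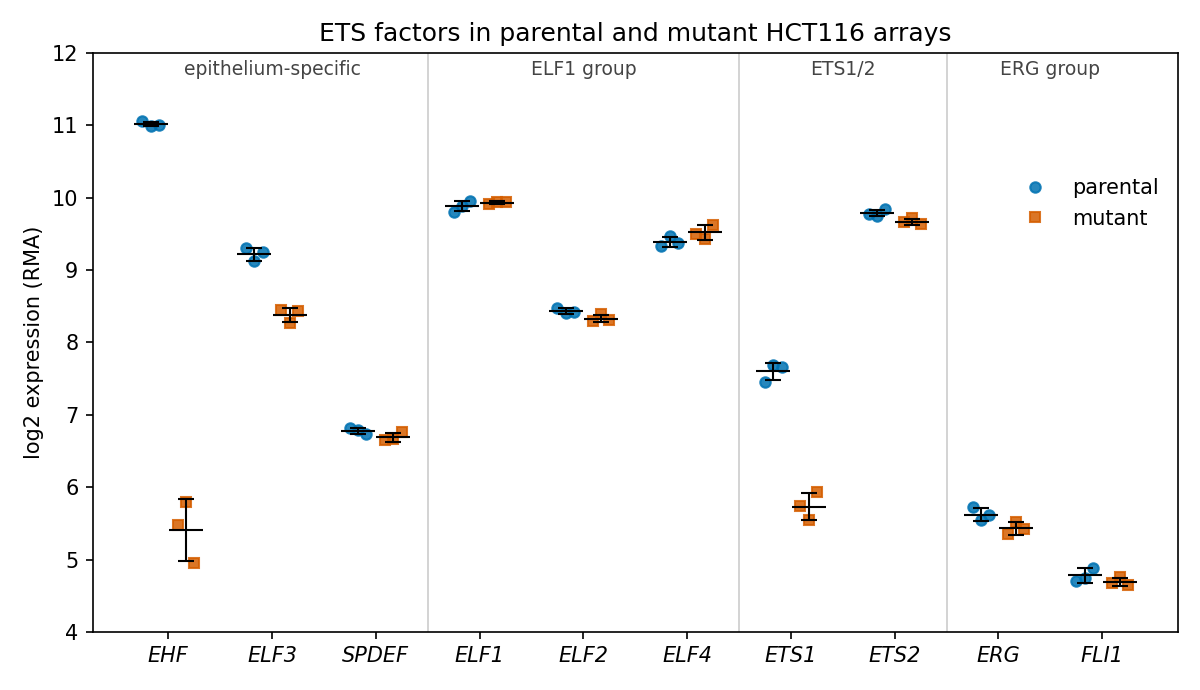
Expression of the 10 ETS factors (log2, RMA) on each of 3 parental (circles) and 3 mutant (squares) arrays, with black bars at the mean ± SD. EHF, ETS1 and ELF3 stand apart between the lines, with differences of -5.61, -1.87 and -0.84 on the log2 scale, and the other 7 factors differ by less than 0.2.

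In count, the limma fit over all probe sets (adjusted p under 0.05) called 3 of the 10 factors, all lower in the mutant, namely EHF, ETS1 and ELF3; over all genes 25.9% were called, 11.3% as lower and 14.6% as higher. All mutant arrays were below all parental arrays for 6 of the 10, against 20.5% of genes, and the groups overlapped for 4. Because the factors were picked with these differences known, nothing is read from either count. Ordered from the most negative, the differences ran EHF, ETS1, ELF3, ERG, ETS2, ELF2, SPDEF, FLI1, ELF1 and ELF4. The last 7 of these lie between -0.19 and 0.13, with SDs within a line of 0.02 to 0.10, so their order is not fixed. Leaving out any one array kept EHF between -5.81 and -5.39, ETS1 between -1.97 and -1.77 and ELF3 between -0.89 and -0.78.

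Genes with the most similar profile over the 6 arrays were found by Euclidean distance after centring each gene on its own mean. With 6 arrays in 2 groups this measure mostly reflects the size of the difference between lines. For EHF the 5 nearest of 18416 genes were FAM111B (distance 0.53 log2 units), NRIP1 (0.59), a nuclear receptor corepressor, HBE1 (0.75), an embryonic globin, NETO2 (0.83) and SQLE (0.92), a cholesterol synthesis enzyme. Their differences ran from -5.19 (NRIP1) to -6.07 (NETO2).

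For ELF3 the 5 nearest were GDF15 (distance 0.12), a stress-induced cytokine, BMERB1 (0.12), TGM2 (0.13), a transglutaminase, C1orf116 (0.13) and BOK (0.13), a BCL2 family member. Their differences ran from -0.78 (GDF15) to -0.85 (C1orf116), with mutant arrays below parental arrays in each.

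Genes next to the factors on the chromosome were compared to see whether whole neighbourhoods differed. EHF lies on chromosome 11 between ELF5, another epithelial ETS gene, and APIP, a methionine salvage enzyme gene. ELF5 differed by -0.09 (limma adjusted p = 0.43) and APIP by -0.14 (0.277), and the next genes outward, CAT, which encodes catalase, and PDHX, a pyruvate dehydrogenase subunit gene, by -0.06 (0.611) and -0.15 (0.206). None of the 4 passed, so of these 5 genes EHF alone stood apart between the lines. ELF5 itself was dim, at 5.66 ± 0.08 and 5.57 ± 0.05 (log2 ± SD, n = 3 each).

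ETS1 and FLI1 are neighbours on another part of chromosome 11. KIRREL3, KIRREL3-AS3, KCNJ1 and KCNJ5 around them differed by -0.06, 0.02, -0.14 and -0.03, and none passed (limma adjusted p from 0.645 to 0.923). All 4 were dim, which limits what a difference could show there. Next to ELF3 on chromosome 1, the aminopeptidase gene RNPEP fell by 0.53, from 11.05 ± 0.03 to 10.52 ± 0.01 (log2 ± SD, n = 3 each; limma adjusted p = 8.12e-04). TIMM17A (-0.20), GPR37L1 (0.19) and PTPN7 (-0.07), also near ELF3, did not pass.

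Of 33 distinct neighbours of the 10 factors that are not themselves among them, 3 fell and 3 rose (limma, adjusted p under 0.05), against 25.9% of all genes called, and their median difference was -0.06. Besides RNPEP the decreases were of SLC7A11, the cystine transporter gene near ELF2 (-1.51), and of WBP4, a splicing gene beside ELF1 (-0.40). The increases were of KBTBD6, a ubiquitin ligase adaptor gene near ELF1 (0.26), AIFM1, which encodes apoptosis-inducing factor, near ELF4 (0.32) and PSMG1, a proteasome assembly gene near ETS2 (0.19). The call of KBTBD6 was lost in 7 of its 15 alternatives and that of PSMG1 in 10 of 15.

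**Figure D2:**
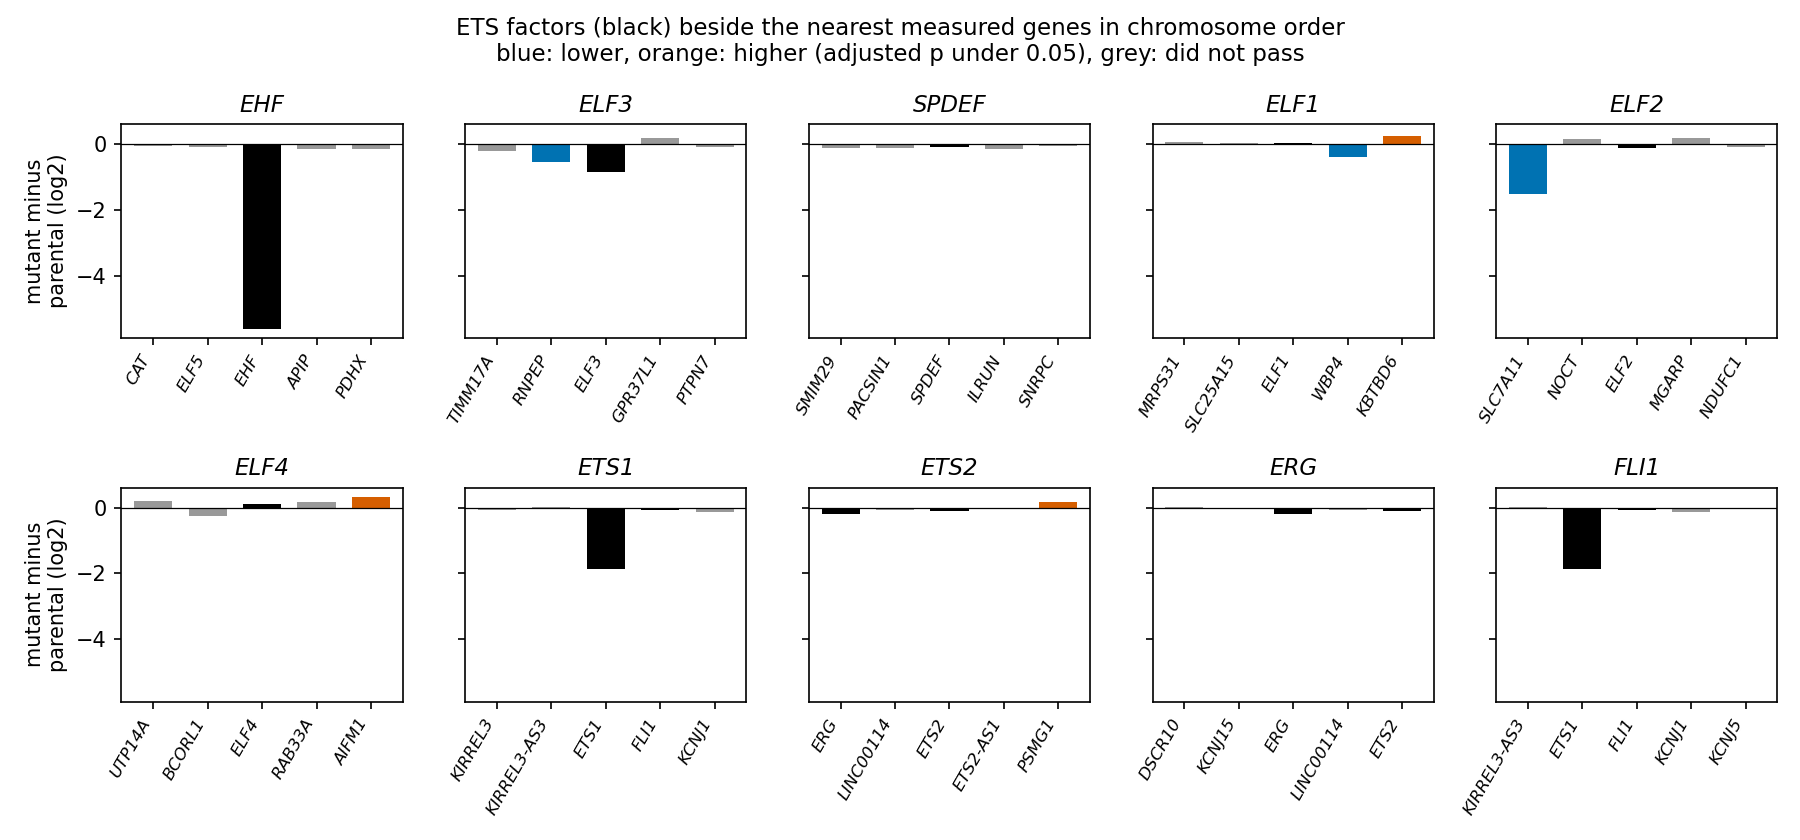
Mutant minus parental difference (log2) of each ETS factor (black bars, which include neighbouring factors) and of the 2 nearest measured genes on either side, with genes that fell in blue, rose in orange and did not pass in grey. The -5.61 of EHF stands between neighbours that differ by -0.09 and -0.14, and the -1.87 of ETS1 between neighbours at 0.02 and -0.08.

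The rest of the ETS family was tested with the same fit. The human family list used here has 28 genes, of which 18 are outside the 10 factors and 17 of those had a single-symbol probe set, ETV6 being the exception. Of the 17, 2 rose and 3 fell (limma, adjusted p under 0.05), against 14.6% and 11.3% of all genes. Their median difference was -0.03 against 0.00 over all genes. At an unadjusted p under 0.05, 2 were higher and 7 were lower, and the share of all genes at that threshold is not given here. ELK3, a serum response factor partner that can repress, fell by 0.64, with parental arrays at 10.44, 10.42 and 10.56 and mutant arrays at 9.73, 9.79 and 9.96 (adjusted p = 0.00275). ETV4, of the PEA3 group induced by RAS and MAPK signalling, rose by 0.56, from 9.75, 9.84 and 9.79 to 10.32, 10.37 and 10.38 (adjusted p = 9.02e-04). Neither gene's arrays overlapped between the lines.

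Smaller calls were ETV1, also of the PEA3 group (-0.25, limma adjusted p = 0.0326), and ELK4, a ternary complex factor (-0.20, adjusted p = 0.0324). GABPA, the DNA-binding subunit of the GABP activator, rose by 0.40 (adjusted p = 0.0156) on its brighter probe set and differed by 0.01 (adjusted p = 0.956) on its other, so its 2 probe sets disagree. Without parental replicate 2, mutant replicate 2 or mutant replicate 3 the count of 5 became 2, and without parental replicate 1 or 3 it became 3, while ELK3 and ETV4 kept their calls in all 15 alternatives each. The 12 that did not pass lay between -0.22 and 0.17 and include ELK1, ERF, ETV5, the other PEA3 member, and the blood factors SPI1, SPIB and SPIC.

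**Figure D3:**
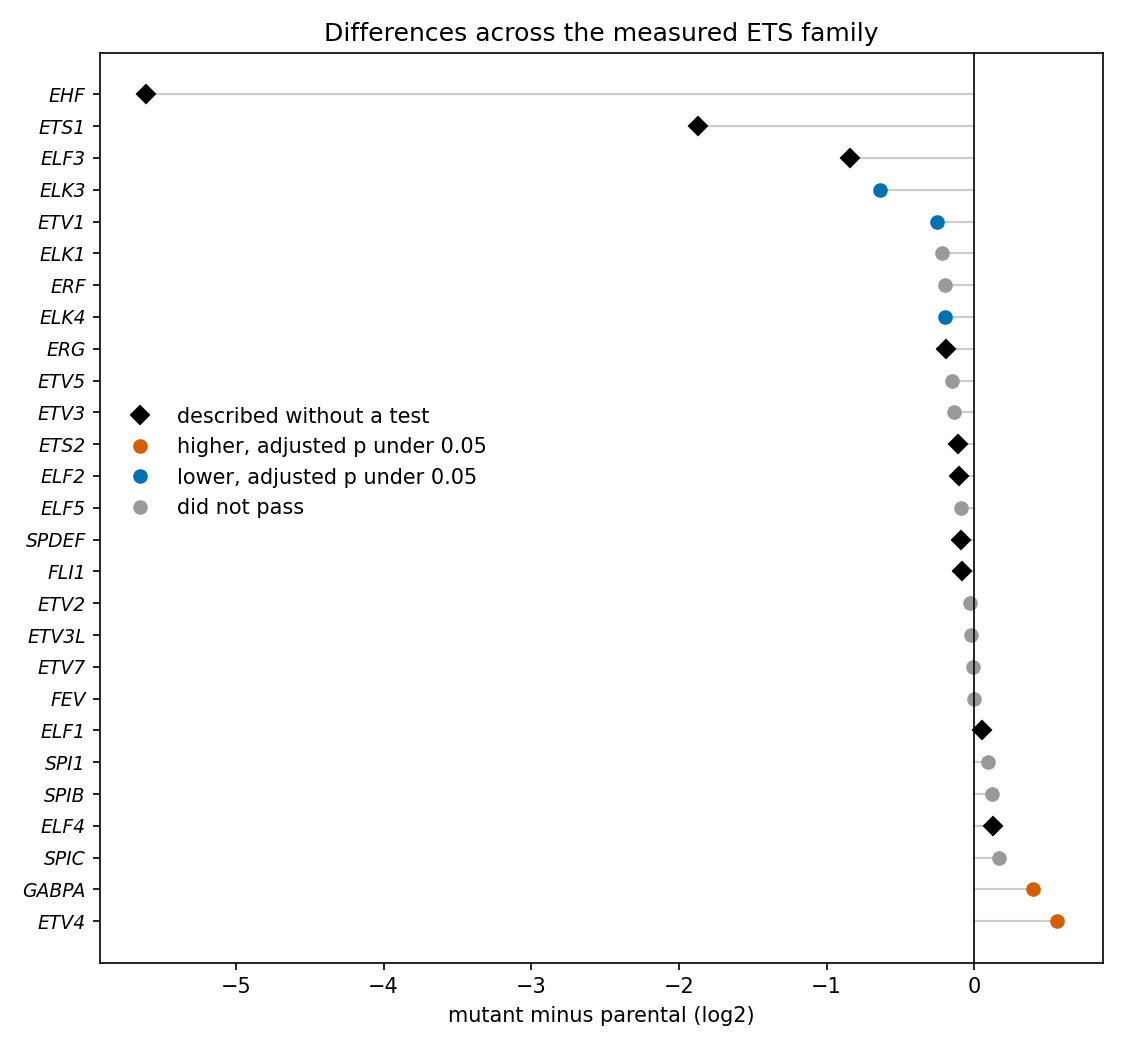
Mutant minus parental difference (log2) of the 27 measured ETS family genes; diamonds are the 10 factors described without a test, and circles the 17 others coloured by the limma call. EHF (-5.61), ETS1 (-1.87) and ELF3 (-0.84) are lower than any other family gene, the next being ELK3 at -0.64, and ETV4 is highest at 0.56.

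Partners and regulators of ETS factors, such as cofactors, kinases and ubiquitin ligase parts, differed moderately. For this and the following lists, 14.6% of all genes rose, 11.3% fell and the median difference was 0.00. The lists were chosen with earlier results of these data known, so their counts and p-values are descriptive. Of 15 measured, 5 rose and 3 fell (limma, adjusted p under 0.05), with a median of 0.15. GABPB2, a partner subunit of GABPA, rose by 0.68 (adjusted p = 0.00316), DET1, part of the COP1 ubiquitin ligase that degrades ETS proteins, by 0.50 (0.0113) and the acetyltransferase gene EP300 by 0.37 (0.00607). A second, dimmer DET1 probe set gave 0.10 (adjusted p = 0.791). Named after their values were seen, CREBBP (0.34) and FOS (0.32) rose as well. CBFB, which stabilises RUNX proteins that bind DNA with ETS1, the kinase gene MAPK3 and CIC, a repressor of PEA3 genes, fell by 0.19, 0.19 and 0.18. All 3 of these decreases were lost without each single array, which left 4 called genes without mutant replicate 2 and 5 without any other array.

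Genes described as bound or regulated by EHF or ELF3 in other epithelial or stromal cells were lower in part. Of 18 measured, 5 fell and 1 rose (limma, adjusted p under 0.05), and the median was -0.07. TGFBR2, the type II TGF-beta receptor and a known ELF3 target, read 9.58, 9.48 and 9.65 in parental and 8.34, 8.21 and 8.24 in mutant arrays, falling by 1.31 (adjusted p = 1.37e-04). The prostaglandin synthase gene PTGS2 fell by 0.98 at a dim level, from 5.96 ± 0.07 to 4.98 ± 0.10 (log2 ± SD, n = 3 each), and the claudin gene CLDN7 fell by 0.59 at a bright one, from 12.18 ± 0.05 to 11.59 ± 0.02. KRT8 (-0.53) and LCN2 (-0.39), the latter named after its values were seen, also fell. ZEB1, a repressor of epithelial genes that ELF3 is reported to restrain, rose by 0.55, from 7.56 ± 0.08 to 8.11 ± 0.12 (adjusted p = 0.00543). The other 12 did not pass, with differences from -0.25 to 0.08. Most of them are squamous or inflammatory genes that were dim here. TNFRSF10B (10.20 in parental and 10.27 in mutant arrays) and ERBB2 (9.15 and 9.10), both named after their values were seen, were bright. They differed by 0.06 and -0.06.

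Among secretory genes linked to SPDEF, 2 of 10 measured rose and 0 fell by limma at an adjusted p under 0.05, with a median of -0.03. At an unadjusted p under 0.05 the counts were also 2 and 0. The secretory stress factor gene CREB3L1 rose by 0.66 (adjusted p = 0.00568) and FCGBP, a mucus protein gene, by 0.49 (0.00242), at mean levels that ran from 6.35 to 7.06 over both genes and lines. The list's other genes, such as MUC2 and TFF3, lay between -0.10 and 0.22.

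Protease and MAPK-response genes with ETS sites moved in both directions. Of 13 measured, 5 rose and 4 fell (limma, adjusted p under 0.05), with a median of 0.00. The phosphatase gene DUSP4 rose by 1.12 (adjusted p = 8.87e-05), the urokinase gene PLAU by 1.10 (1.24e-04) and the feedback inhibitor gene SPRY2 by 0.96 (2.83e-04). DUSP6, an ERK phosphatase, fell by 1.13 (adjusted p = 1.43e-04), EGR1 by 0.35 (0.00695) and SPRY4 by 0.34 (0.00629). Paralogs thus parted, with DUSP4 and SPRY2 higher and DUSP6 and SPRY4 lower. Named after their values were seen, PLAUR (0.29) and CCND1 (0.28) rose and PHLDA1 fell by 0.29. The matrix protease genes MMP1, MMP3 and MMP9, classical ETS1 targets, differed by -0.01, 0.00 and -0.11 at dim levels and did not pass.

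Epithelial transcription factors outside the ETS family, with the repressors that oppose them, also went both ways. Of 16 measured out of 19 listed, 5 rose and 5 fell (limma, adjusted p under 0.05), and the median was -0.03. GRHL2, the grainyhead activator of junction genes, fell by 2.65 (adjusted p = 1.31e-05), TWIST1 by 0.56 (0.00249) and SNAI1 by 0.36 (0.00922). SNAI2, a repressor of epithelial genes, rose by 2.15 (adjusted p = 5.31e-05), KLF4 by 0.73 (0.00183), and ZEB1 and OVOL2 by 0.55 each. Named after their values were seen, OVOL1 (-0.29) and GRHL1 (-0.26) fell and KLF5 rose by 0.23, a call lost in 10 of its 15 alternatives. The intestinal factors CDX1 and CDX2 differed by -0.02 and -0.04 and did not pass.

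Markers of cell types were read beside these results. Of 12 colon epithelium markers, 0 rose and 4 fell by limma, and the median was -0.07. At an unadjusted p under 0.05, 1 was higher and 4 were lower. The 4 were CDH1, which encodes E-cadherin (-1.36), KRT18 (-0.88), KRT8 (-0.53) and KRT19 (-0.47, named after its values were seen). The summed level of this list, as a mean over its genes, lay at 8.82 to 8.84 on parental and 8.50 to 8.62 on mutant arrays. The other 8 markers did not pass, among them EPCAM, higher by 0.18 (limma adjusted p = 0.0715) with all mutant arrays above all parental arrays. A second EPCAM probe set, at 12.04 in parental and 12.07 in mutant arrays, differed by only 0.03 (limma adjusted p = 0.762). The 4 that fell move with EHF, ETS1 and ELF3, and their part in those results was not tested.

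Markers of other cell types had lower list means than the colon markers. Of 10 endothelial markers 0 passed by limma, and 0 had an unadjusted p under 0.05; their mean level was 5.85 to 5.97 on parental and 5.87 to 5.89 on mutant arrays, beside the dim ERG and FLI1. Of 11 leukocyte markers 0 passed by limma and 1 had an unadjusted p under 0.05, with array means of 5.84 to 5.89 and 5.88 to 5.92, and PTPRC, the pan-leukocyte marker, lay between 3.56 and 3.90 over all arrays. Named after their values were seen, the macrophage marker CD68, a lysosomal protein gene, read 9.19 and 9.33, above the range of the guide genes, and LYZ, which encodes lysozyme, differed by -0.35 (limma adjusted p = 0.0866). Of 10 fibroblast markers 1 rose and 0 fell by limma, and 1 was higher and 1 lower at an unadjusted p under 0.05, with array means of 5.30 to 5.37 and 5.26 to 5.35. The 1 was PDGFRB (0.27, limma adjusted p = 0.0322), which did not pass in 8 of 14 alternatives. The collagen gene COL1A1, also named after its values were seen, read 8.30 and 8.13, inside the range of the guide genes.

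**Figure D4:**
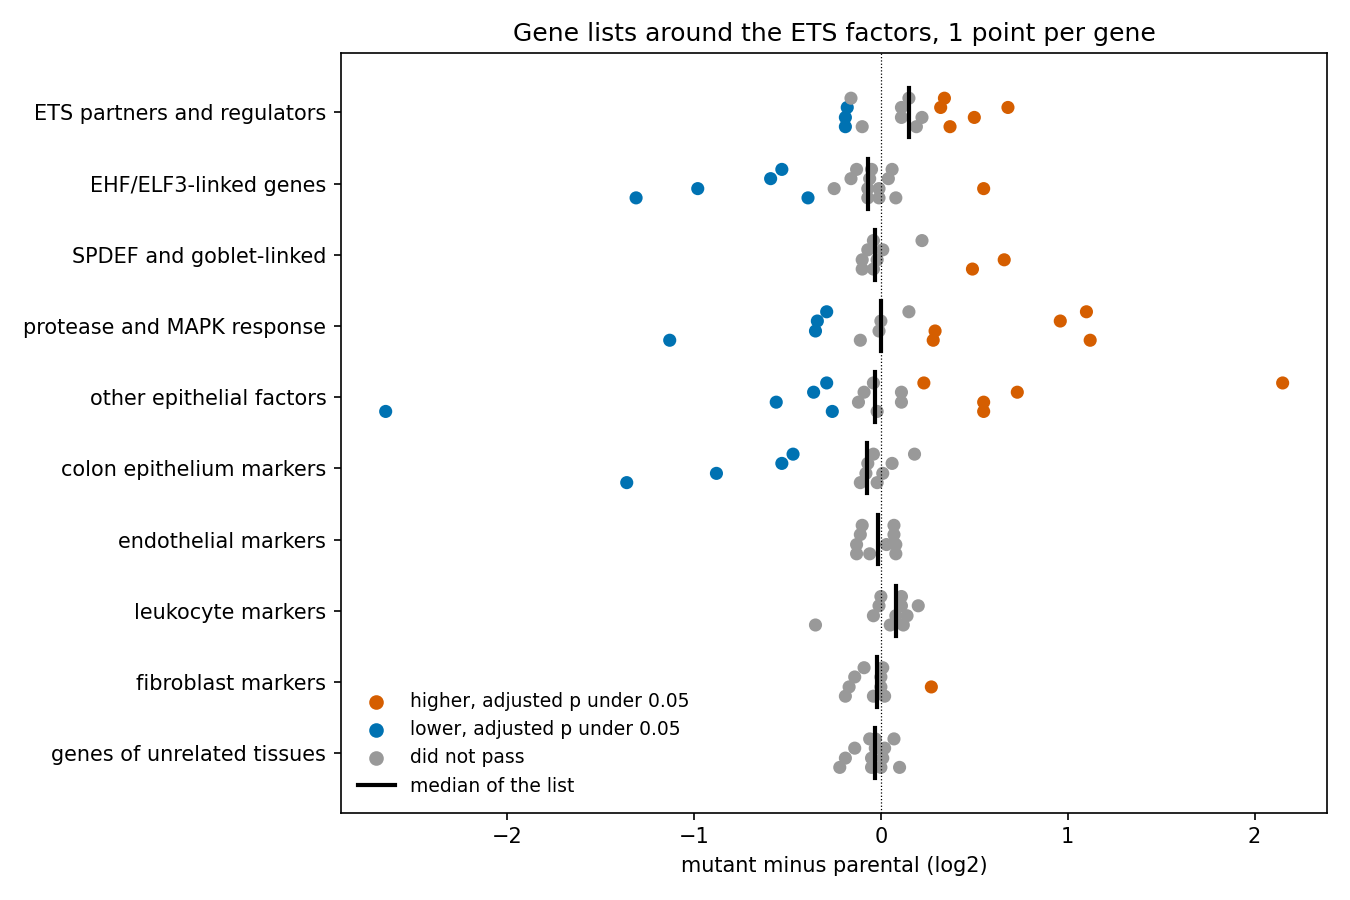
Mutant minus parental difference (log2) of every measured gene in 10 lists, with the list median as a black bar and limma calls in colour. GRHL2 (-2.65) and SNAI2 (2.15) are the extremes, and the medians of the lists lie between -0.07 and 0.15.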

How the data were processed

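RNA of 3 parental and 3 mutant HCT116 arrays was profiled, and groups and replicate numbers came from the sample titles. The authors deposited log2 values, 1 for each probe set on each array. Per the submitters' processing notes these come from RMA (robust multi-array average) and Partek. For the versions and the genome build, the sources used here say nothing. RMA makes the array distributions alike, so a difference in total RNA per cell is removed, and it compresses changes of dim probe sets. The values were used as deposited.

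Differences of mutant minus parental were fitted for all 33297 probe sets without covariates, using lmFit and eBayes of limma 3.58.1 under R 4.3.3, with two-sided p-values. Benjamini-Hochberg adjustment ran over the whole table, and an adjusted p under 0.05 was called. Identical rows (558) were kept. Genes were named from probe sets with exactly 1 symbol in the platform annotation and represented by the brightest one. On simulated data with 200 changed probe sets, 52.4% of 1.5-fold, 79.7% of 2-fold and 98.3% of 4-fold changes were recovered. In that simulation 7 unchanged probe sets were called. The real fit called 6166 probe sets, far more than were changed in the simulation, so these rates do not carry over to it.

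The 10 factors and all lists were chosen with earlier results of these data known. The factors therefore carry no p, and the counts and p-values of list genes are descriptive. Named besides them were every called ETS family gene, up to 3 called genes per list and direction, the 2 nearest measured genes on either side and the 5 nearest profiles to EHF and ELF3; others are said to be named after their values were seen. Sequence windows came from RefSeq (GRCh38.p14). A planned comparison of protein sequences was not run. Alternatives covered normalization, a filter on dim probe sets, variance models, array weights, the replicate block, each array left out, single-symbol rows, averaged probe sets per gene and a minimum fold of 1.2. Same-numbered arrays deviated together with correlations of 0.04, -0.01 and 0.00 across probe sets, so the numbers were not taken as pairs. Python 3.11.15 with pandas 2.3.3 and matplotlib 3.10.9 served for the tables and plots.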

Additional observations from a re-analysis of the deposited data

How the results depend on the processing

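In the main fit 25.9% of all genes were called. Because the factors were picked with these differences known, nothing is read from their count. ETS1 lies under the filter on dim probe sets and was not tested there. Of the 10 factors, the fit called 2 with that filter and 3 in every other alternative. Their differences moved by less than the spread between replicates in each alternative that re-estimates them, including the leave-one-out estimates, which ran from -5.81 to -5.39 for EHF, from -1.97 to -1.77 for ETS1 and from -0.89 to -0.78 for ELF3. Requiring a fold of 1.2 in the test, stricter by construction, lowered the probe sets called from 6166 to 1743, the other ETS family genes from 5 to 2 and the called genes of the remaining lists from 38 to 15. The filter on dim probe sets, which tests fewer probe sets, gave 8 other ETS family genes, 2 higher and 6 lower. When single arrays were left out, the fits called 4037 to 4644 probe sets, 2 to 4 other ETS family genes and 29 to 32 list genes, with fewer samples in each fit; the probe sets called moved most without parental replicate 2 (4109) and mutant replicate 2 (4037). Other ETS family genes called were 3 without parental replicate 1 or 3, 2 without parental replicate 2, mutant replicate 2 or mutant replicate 3, and 4 without mutant replicate 1. With the replicate block, whose numbers did not pair the arrays, 4365 probe sets, 3 of the 10 factors, 3 other ETS family genes and 31 list genes were called. Of 87 named genes outside the 10 factors, 52 stayed on the same side of the threshold in every alternative that tested them, 30 lost a call in at least 1, 5 gained one, and 0 had a call that reversed. The deposited values hold no background reading per probe. Levels inside the guide range (3.32 to 8.62, log2) therefore cannot, by level alone, be told from those of genes not expected in the line. Such levels are those of SPDEF, ETS1, ELF2, ERG and FLI1 in both lines and of EHF and ELF3 in the mutant. The fall of ETS1 from 7.60 in parental to 5.73 in mutant arrays was read within 1 probe set and does not rest on the guide genes. The upper end of the range rests on TNNI3 alone, and the next guide gene, CRYGC, read 6.69 in parental and 6.64 in mutant arrays. ETS1 in parental arrays, ELF2 in both lines and ELF3 in the mutant read between CRYGC and TNNI3.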

Other observations

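ETV6, an ETS repressor with no single-symbol probe set, shares a probe set with another gene; there the difference was 0.21 (limma adjusted p = 0.0814). Over both probe sets, KRT18 fell by 0.88 and by 1.07.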
